A study of Mus musculus with 2 samples.

Results

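Glutamine and glutamate handling was examined through 8 genes in mouse small hepatocytes (SHs), a minor population of small liver cells with progenitor properties, and in mature hepatocytes (MHs). The genes were chosen by name for their roles, with earlier results of these data known, and matched by symbol, and all 8 were found among the 43280 gene symbols in the count files. They were Glul, Oat, Glud1, Gls2, Slc1a2, Slc1a4, Slc38a3 and Rhbg. Both cell populations came from the livers of the same C57BL6 mice, labelled as 20 weeks old, without any genetic change or treatment, after collagenase perfusion. The methods give a younger age for the mice of the study and say that the sequenced cells came from more than 1 mouse. MHs were pelleted at low speed, freed from dead cells with Percoll and not sorted. SHs were taken from the supernatant and sorted by FACS for surface ICAM-1, after cells with CD31, CD45 or EpCAM had been gated out. Poly(A) RNA was sequenced as 1 library of each. Every difference below is thus a difference between 2 libraries with no replicate in the sequencing, and no test was possible. The methods describe quantitative PCR on repeated isolations as a check, which is not part of the data used here.

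In the liver lobule, blood flows from the portal vein (ZONE1) to the central vein (ZONE3). Hepatocytes near the portal vein take up glutamine and split it into glutamate and ammonia, and the ammonia enters the urea cycle. Hepatocytes in a thin layer around the central vein instead take up glutamate and ammonium and join them into glutamine, which captures the ammonia that escaped the urea cycle. Glul, Oat, Slc1a2 and Rhbg are known from this layer around the central vein, whereas Gls2 is known from the portal side. Wnt signals from the endothelium of the central vein maintain expression in that layer, through beta-catenin and its TCF and LEF partner proteins.

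Levels are given as RPM, the reads of a gene per 1000000 reads counted in its library, and as RPKM, which also divides by exon length, where genes are compared with each other. Log2 ratios are those of SHs over MHs, with 0.5 reads added to each count. Intervals are 95% Clopper-Pearson intervals of the counts, except for ratios of gene pairs, where they are exact conditional 95% intervals. They cover counting error only, since each population had 1 library. The reads carried no molecular identifiers, so copies of a molecule were not told apart. Counted reads numbered 16979136 for MHs and 42356444 for SHs, so that 3 reads equalled 0.177 RPM in MHs and 0.0708 RPM in SHs. The 6 hepatocyte markers listed, Alb and Hnf4a among them, had log2 ratios between -0.19 and 0.13. Markers of other liver cells differed more between the libraries. The 10 endothelial markers summed to 75.2 RPM in MHs and 4.16 RPM in SHs, with Wnt9b at 0 in MHs and Lyve1 and Rspo3 at 0 in SHs. The 8 macrophage and leukocyte markers in the files summed to 17.3 and 1.02 RPM, and the 9 stellate cell markers to 19.8 and 2.10 RPM. Markers with 10 reads or more were counted as lower in SHs at 2-fold or more with an interval wholly under 0. By this rule, 7 of 7 endothelial, 7 of 8 macrophage and leukocyte and 7 of 7 stellate genes were lower. Of all genes with that depth, 4.46% were. The minimum was on both libraries together, so a marker could pass it through MHs alone, as Lyve1 did with 14 reads. Under it fell Col1a1 (1 read in MHs and 6 in SHs) and Wnt9b (0 and 3), which were higher in SHs. Rspo3 (8 and 0), Wnt2 (4 and 2) and Ngfr (4 and 2) also fell under it and were lower. The counts were thus partly set by the minimum. The 6 cholangiocyte markers summed to 14.0 RPM in MHs and 14.1 RPM in SHs, nearly all from Sox9 (log2 ratio 0.50) and Spp1 (-0.33), with Cftr at 0 in SHs and Epcam at 6 reads in MHs and 1 in SHs. In sum, the endothelial, leukocyte and stellate markers moved with the glutamine genes that were lower in SHs, and their part in those differences was not tested. In such bulk samples, fewer cells of a type and less RNA per cell cannot be told apart.

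Glul, Oat and Slc1a2, which make glutamine or feed its synthesis around the central vein, had lower levels in the SH library than in the MH library. Of the 8 genes, 5 were at least 2-fold lower in SHs with an interval wholly under 0, namely Glul, Oat, Slc1a2, Rhbg and Slc1a4, whereas 4.46% of the 15521 genes that had 10 or more reads in all met that rule. None of the 8 was at least 2-fold higher, which 2% of those genes were. By the interval alone, 5 of the 8 lay under 0 and 2 above it, beside 15.5% and 16.8% of those genes. Glud1, Slc38a3 and Gls2 had log2 ratios between 0.03 and 0.53. Among genes with at least 200 reads, where counting error is smaller, 3 of the 6 glutamine genes were lower and 0 higher, against 0.812% and 0.354% of 9608 genes. Rhbg and Slc1a4 fell below 200 reads, and Rhbg had met the minimum of 10 through its 10 reads in MHs, with 4 in SHs. The median log2 ratio of the 8 genes was -1.69, beside 0.02 over all genes of that depth, 10 reads or more. Despite this split, the 8 genes together took nearly the same share of each library, 0.221% for MHs and 0.213% for SHs. Most of these reads came from Slc38a3, Gls2 and Glud1, so the near-equal share says little about the 5 lower genes.

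**Figure D1:**
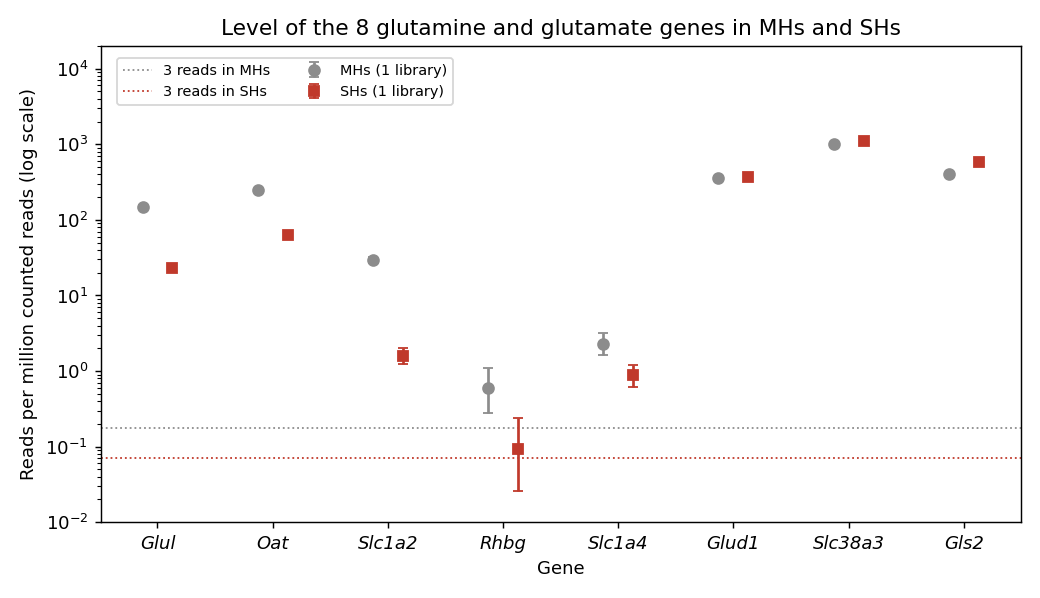
RPM of each of the 8 genes in the MH library (grey circles) and the SH library (red squares), on a log axis, with bars for the 95% counting interval and dotted lines at the RPM of 3 reads in each library. The points of Glul, Oat, Slc1a2, Rhbg and Slc1a4 lie lower in SHs, by 2.63-fold for Slc1a4 to 18.7-fold for Slc1a2, while those of Glud1 and Slc38a3 lie nearly level.

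Glul encodes glutamine synthetase, which joins glutamate and ammonium to glutamine and marks the layer of hepatocytes next to the central vein. It had 2540 reads in MHs and 991 in SHs, although the SH library was the deeper one. These counts equalled 149.6 RPM in MHs, with an interval of 143.8 to 155.5, and 23.4 RPM in SHs, with an interval of 22.0 to 24.9. Its level was thus 6.39-fold lower in SHs (interval 5.94 to 6.89), a log2 ratio of -2.68. Of the 5055 genes with 1000 or more reads in all, Glul had the lowest ratio, and it ranked 11 from the lowest among the 9608 genes with at least 200 reads. Glul lies at chr1:153899944-153909723 on the plus strand of mm10. Of its 50-base exon sequences, 14.5% also occur in other genes, chiefly the pseudogene Glns-ps1, which had 64 reads in MHs and 20 in SHs. The log2 ratio of Glul and Glns-ps1 summed was -2.68 as well. The bases before its annotated start, chr1:153899679-153899928 on the plus strand, are shown because it is the central member of the group and 4 other genes were lower with it. Here and in the sequences of Oat and Slc1a2, taken from RefSeq on GRCm38.p6 and written 5′ to 3′ along the gene, capitals mark CTTTGA or its reverse complement TCAAAG, the core of the motif bound by TCF and LEF proteins, and CCAAT or its reverse complement ATTGG, the motif bound by NF-Y. Motifs were searched on both strands in the 250 bases before the start.
Glul: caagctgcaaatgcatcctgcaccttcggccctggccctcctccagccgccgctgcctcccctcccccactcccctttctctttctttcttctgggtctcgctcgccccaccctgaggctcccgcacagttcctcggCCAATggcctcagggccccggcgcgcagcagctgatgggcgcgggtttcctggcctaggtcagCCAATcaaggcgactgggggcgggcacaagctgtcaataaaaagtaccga
The window of Glul held 2 copies of CCAAT and none of CTTTGA, and it also lies within a non-coding exon of Teddm2 on the opposite strand. Over all 32851 promoters in the table, 33.9% held CCAAT and 13.8% held CTTTGA, in either orientation. The absence of CTTTGA says only that these letters are not in this window.

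Oat encodes ornithine aminotransferase, a mitochondrial enzyme that turns ornithine into a precursor of glutamate and is expressed around the central vein. It had 4237 reads in MHs and 2685 in SHs. Scaled to depth, this was 249.5 RPM (interval 242.1 to 257.2) in MHs and 63.4 RPM (interval 61.0 to 65.8) in SHs. Oat was 3.94-fold lower in SHs (interval 3.75 to 4.13), with a log2 ratio of -1.98. It ranked 3 from the lowest of the genes with at least 1000 reads, so that both Glul and Oat lay at the low end of the well-measured genes. Oat lies at chr7:132557478-132576398 on the minus strand of mm10 and shares no exact 50-base exon sequence with another gene. The bases before the start of Oat, chr7:132576399-132576648 on the minus strand, are shown for comparison with those of Glul.
Oat: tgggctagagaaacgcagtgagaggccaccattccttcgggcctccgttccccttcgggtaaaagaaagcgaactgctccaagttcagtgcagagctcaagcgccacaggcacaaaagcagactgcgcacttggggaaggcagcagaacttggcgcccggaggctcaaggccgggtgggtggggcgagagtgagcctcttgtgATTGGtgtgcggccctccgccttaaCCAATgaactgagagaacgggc
As in Glul, the window held 2 matches to CCAAT, 1 in each orientation, and none to CTTTGA.

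Slc1a2 encodes the high-affinity glutamate transporter GLT-1, which in the liver supplies glutamate to the cells with glutamine synthetase. It had 506 reads in MHs and 67 in SHs. Its level was 29.8 RPM in MHs (interval 27.3 to 32.5) and 1.58 RPM in SHs (interval 1.23 to 2.01). Of the 8 genes it differed most, being 18.7-fold lower in SHs (interval 14.6 to 24.7), a log2 ratio of -4.23, and it ranked 9 from the lowest of the 9608 genes with at least 200 reads. Slc1a2 lies at chr2:102658659-102790784 on the plus strand of mm10. The promoter given for it belongs to a start inside the gene, since its longest transcripts begin further upstream. Part of that window, chr2:102706188-102706355 on the plus strand, is shown because Slc1a2 was the only one of the 5 genes with a promoter in the table whose window held CTTTGA.
Slc1a2: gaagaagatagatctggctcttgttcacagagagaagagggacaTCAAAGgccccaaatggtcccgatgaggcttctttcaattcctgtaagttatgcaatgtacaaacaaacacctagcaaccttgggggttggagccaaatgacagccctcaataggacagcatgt
The full window held 2 matches to CTTTGA, 206 and 77 bases before the start, and none to CCAAT. The part shown stops where the first annotated untranslated region in the window begins, and the window holds 29 exon bases. The first match is therefore shown, whereas the second lies past that point. A match is a description of the letters and not of binding.

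Rhbg encodes a membrane channel of the Rh family that carries ammonium into cells around the central vein. It was at the limit of detection, with 10 reads in MHs and 4 in SHs. This was 0.589 RPM in MHs (interval 0.282 to 1.08) and 0.0944 RPM in SHs (interval 0.0257 to 0.242). The ratio was 5.82-fold lower in SHs, but its interval ran from 1.80-fold to 27.2-fold, so its size was poorly fixed at this depth. Rhbg lies at chr3:88242874-88254709 on the minus strand, and 60.4% of its 50-base exon sequences are shared with Gm38392, an overlapping gene on the same strand that is not among the counted symbols. A separate symbol RHBG had 0 reads in both libraries.

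Slc1a4 encodes ASCT1, an exchanger of small neutral amino acids such as alanine, serine and cysteine, and belongs to the same family as Slc1a2. It had 39 reads in MHs and 37 in SHs. Its level was 2.30 RPM in MHs (interval 1.63 to 3.14) and 0.874 RPM in SHs (interval 0.615 to 1.20), so the intervals did not overlap. Slc1a4 was 2.63-fold lower in SHs (interval 1.63 to 4.24), and this interval includes folds under 2. It lies at chr11:20302180-20332713 on the minus strand. Its promoter window, which held 2 matches to CCAAT and none to CTTTGA, was like those of Glul and Oat in this respect. The window of Slc1a2, also lower in SHs, held no CCAAT, and that of Glud1 held neither motif.

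The genes for breaking glutamine and glutamate down did not show this difference. Gls2 encodes the liver-type glutaminase, the mitochondrial enzyme that splits glutamine into glutamate and ammonia on the portal side. It had 6886 reads in MHs and 24729 in SHs. Its level was 405.6 RPM (interval 396.0 to 415.3) in MHs and 583.8 RPM (interval 576.6 to 591.2) in SHs. Gls2 was therefore 1.44-fold higher in SHs (interval 1.40 to 1.48), the highest ratio of the 8 genes. Of the genes with at least 10 reads, 9.33% had a higher ratio. At greater depth this ratio lay near the upper end. Gls2 ranked 9369 from the lowest of the 9608 genes with at least 200 reads and 4992 of the 5055 with at least 1000. Of those 5055 genes, 31.2% had an interval wholly above 0 and 21.1% one wholly under 0. Gls2 lies at chr10:128194457-128210004 on the plus strand, and 97 bases of its exons overlap Spryd4 on the opposite strand, which had 223 reads in MHs and 696 in SHs. Whether the counting used strand is not given in the sources used here, and the same holds for Glul, whose exons share 116 bases with Teddm2 (7 and 4 reads).

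Glud1 encodes glutamate dehydrogenase, the mitochondrial enzyme that releases ammonium from glutamate or, in reverse, binds it. With 6085 reads in MHs and 15507 in SHs, it stood at 358.4 RPM (interval 349.4 to 367.5) and 366.1 RPM (interval 360.4 to 371.9). The intervals of both libraries overlapped, and the log2 ratio of 0.03 had an interval of -0.01 to 0.07. Glud1 lies at chr14:34310727-34345265 on the plus strand, and 8.06% of its 50-base exon sequences occur in other genes that are not among the counted symbols.

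Slc38a3 encodes SNAT3, the sodium-coupled transporter that moves glutamine across the hepatocyte membrane in either direction. Its 17215 reads in MHs and 46102 in SHs were the most of the 8 genes. Its level was 1014 RPM (interval 998.8 to 1029) in MHs and 1088 RPM (interval 1079 to 1098) in SHs. This gave a log2 ratio of 0.10 (interval 0.08 to 0.13). The difference was beyond counting error but small, and it was not checked against any spread between replicates. Slc38a3 lies at chr9:107650634-107669530 on the minus strand and shares no 50-base exon sequence with another gene.

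**Figure D2:**
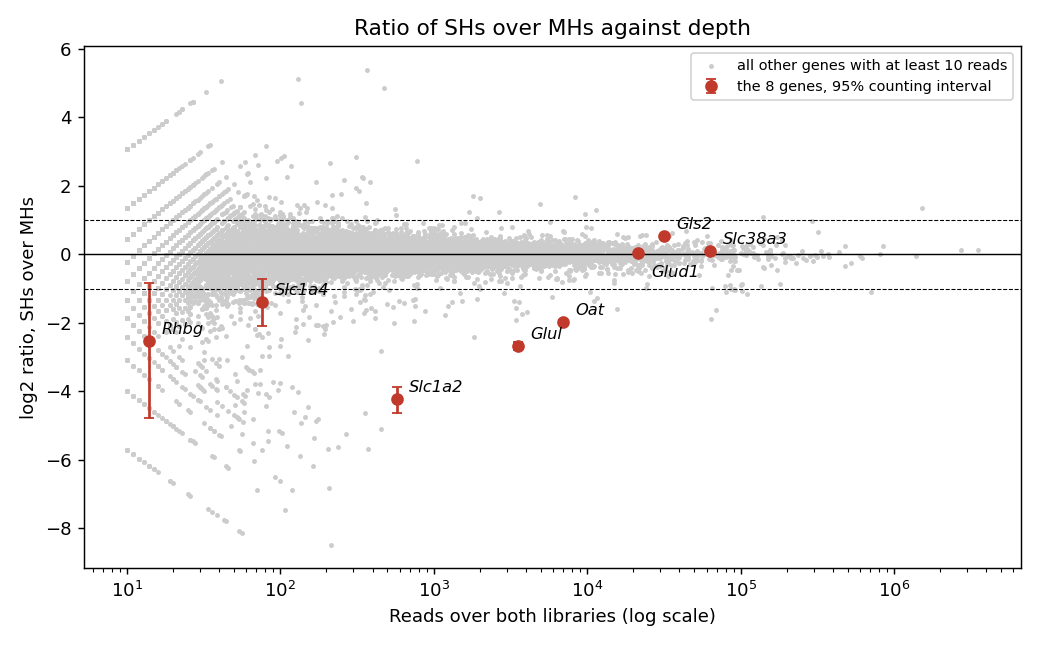
Log2 ratio of SHs over MHs against the reads over both libraries (log axis), with all genes with at least 10 reads in grey, the 8 genes in red with their 95% counting intervals, and dashed lines at a 2-fold difference. Glul (-2.68) and Oat (-1.98) lie under nearly all genes of similar depth, Rhbg and Slc1a4 lie among widely scattered genes of low depth, and Glud1, Slc38a3 and Gls2 lie between the dashed lines.

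Per exon length, the order of the 8 genes was headed in both libraries by Slc38a3, with 192.1 RPKM in MHs and 206.3 RPKM in SHs, and then by Gls2, with 116.7 and 168.1 RPKM. In MHs, Oat followed with 105.7 RPKM, Glud1 with 85.1 RPKM and Glul with 45.0 RPKM. In SHs, Glud1 kept 87.0 RPKM and stood above Oat with 26.9 RPKM and Glul with 7.04 RPKM. The transporters Slc1a2, Slc1a4 and Rhbg stood far lower, with 2.27, 0.585 and 0.304 RPKM in MHs. In SHs, Slc1a4 with 0.223 RPKM stood above Slc1a2 with 0.120 RPKM, and Rhbg was at 0.0488 RPKM. The counting intervals of neighbours in this order overlapped only for Slc1a4 and Rhbg in MHs (0.416 to 0.800 against 0.146 to 0.559 RPKM) and for Slc1a2 and Rhbg in SHs (0.0933 to 0.153 against 0.0133 to 0.125 RPKM). Thus, per exon length, the places of Oat and Glud1, and those of Slc1a2 and Slc1a4, were exchanged between the libraries. In RPM, Glud1 stood above Oat and Slc1a2 above Slc1a4 in both libraries, so these exchanges rest on the exon lengths used. The counting intervals do not cover error in those lengths.

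Ratios of reads within a library need no library total, and 4 pairs were compared in this way. For each read of Glul, there were 2.71 reads of Gls2 in MHs and 25.0 in SHs, so that the ratio of Glul to Gls2, of glutamine synthesis to glutamine breakdown, was 9.20-fold lower in SHs (interval 8.51 to 9.96). The ratio of Oat to Glud1 was 0.696 in MHs and 0.173 in SHs, 4.02-fold lower (interval 3.80 to 4.26). Between the glutamate and the neutral transporter, 0.0771 reads of Slc1a4 per read of Slc1a2 in MHs stood against 0.552 in SHs, so that the ratio of Slc1a2 to Slc1a4 was 7.16-fold lower (interval 4.12 to 12.4). The ratio of Rhbg to Slc38a3 was 6.70-fold lower, with a wide interval of 1.93 to 29.2 that follows from the few reads of Rhbg. The pairs were set with the gene of lower ratio first, and each follows from the ratios of the single genes, so their common direction adds no support.

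**Figure D3:**
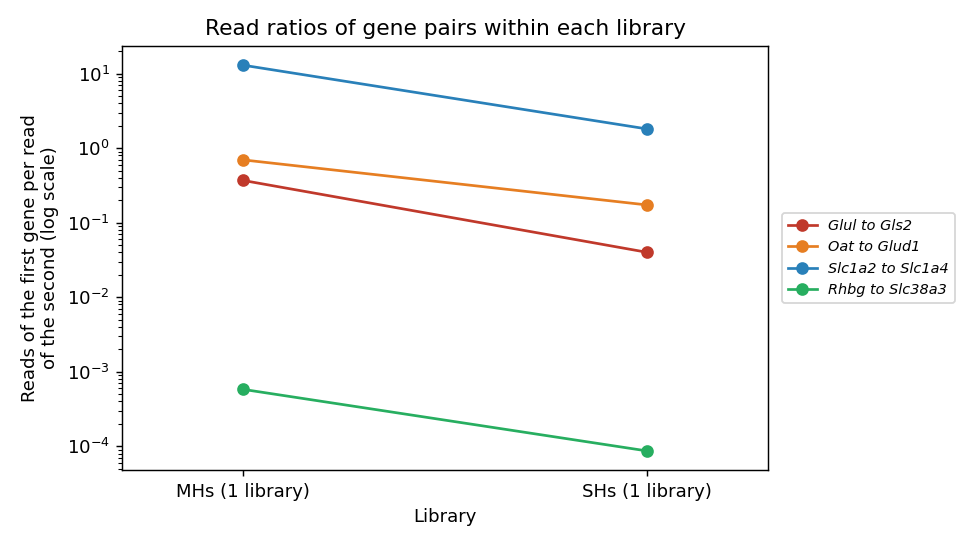
Reads of the first gene per read of the second, on a log axis, in the MH and the SH library for 4 pairs of the 8 genes, with a line joining the libraries. The lines descend from MHs to SHs, as the order of the genes in each pair sets, by 4.02-fold for Oat to Glud1 and 9.20-fold for Glul to Gls2.

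The other 55 genes listed for glutamine, glutamate and ammonia metabolism were examined to see how far the difference extended beyond the 8 genes. Of these, 41 had at least 10 reads, and the other 14 had at most 8. In SHs, 3 of the 41 were at least 2-fold lower and 0 were at least 2-fold higher, near the 4.46% and 2% of all genes with that depth, and their median log2 ratio was 0.10. The 3 lower genes had few reads. They were Aldh18a1 (8 reads in MHs and 4 in SHs), which starts proline synthesis from glutamate, Asns (35 and 38 reads), the asparagine synthetase, and Slc7a5 (11 and 9 reads), an exchanger of large neutral amino acids. Among the 34 genes with 200 or more reads, 0 met the rule for lower expression, 19 had an interval wholly above 0 and 3 had one wholly under 0, beside 23.2% and 16.9% of all genes with that depth. The 0 lower genes stand beside 0.812% of all genes with that depth, so this count is near the background. The lowest log2 ratio among the 34 genes was -0.24, for the transporter Slc38a7.

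By role, the other genes of nitrogen transfer and disposal with at least 10 reads differed by less than 2-fold. They are read beside the median log2 ratio of 0.04 over genes with 1000 or more reads, of which 31.2% had an interval wholly above 0. The 4 aminotransferases had log2 ratios of 0.04 to 0.37, with intervals above 0 for 3 of them, and Gpt2, an alanine aminotransferase with the most reads of its group (6716 and 18603), had 0.15. All 4 enzymes of histidine breakdown, a route to glutamate, had intervals wholly above 0, led by Hal, the histidine ammonia-lyase, with 12929 and 47068 reads and a log2 ratio of 0.55. The ratio of Hal exceeded that of Gls2 (0.53), which ranked 4992 from the lowest of the 5055 genes with 1000 or more reads. All 6 urea cycle genes also had intervals wholly above 0, which at their depth even a small ratio reaches, from 0.02 for Cps1, which binds ammonia in the first step of the cycle (104963 and 265556 reads), to 0.50 for Ass1. The 4 mitochondrial carriers with at least 10 reads had log2 ratios of 0.08 to 0.37, and Slc25a15, the ornithine carrier of mitochondria, had 0.34 with 3574 and 11267 reads.

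Around Oat, the other genes of ornithine and proline conversion with at least 200 reads did not share its low ratio. Aldh18a1 had a log2 ratio of -2.24, but from only 8 reads in MHs and 4 in SHs. Aldh4a1, which carries on from the product of Oat to glutamate, had a log2 ratio of 0.11, from 3361 reads in MHs against 9019 in SHs. The proline oxidase Prodh had -0.23, with 2023 and 4291 reads. Among the enzymes that use the amide of glutamine, apart from Asns, 8 genes had at least 10 reads and none was at least 2-fold lower, Gfpt1 having the most reads (614 and 1628) and a log2 ratio of 0.09. Of the acidic amino acid transporters besides Slc1a2, Slc1a6 alone had at least 10 reads, with 72 in MHs, 346 in SHs and a log2 ratio of 0.94, so it differed in the direction opposite to Slc1a2. Among neutral transporters, the amino acid transporter Slc38a4 had the most reads besides Slc38a3 (18852 and 42967) and a log2 ratio of -0.13. Of the Rh family, Rhcg and Rhag had 1 read each in MHs and 3 each in SHs, so no ratio was taken.

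**Figure D4:**
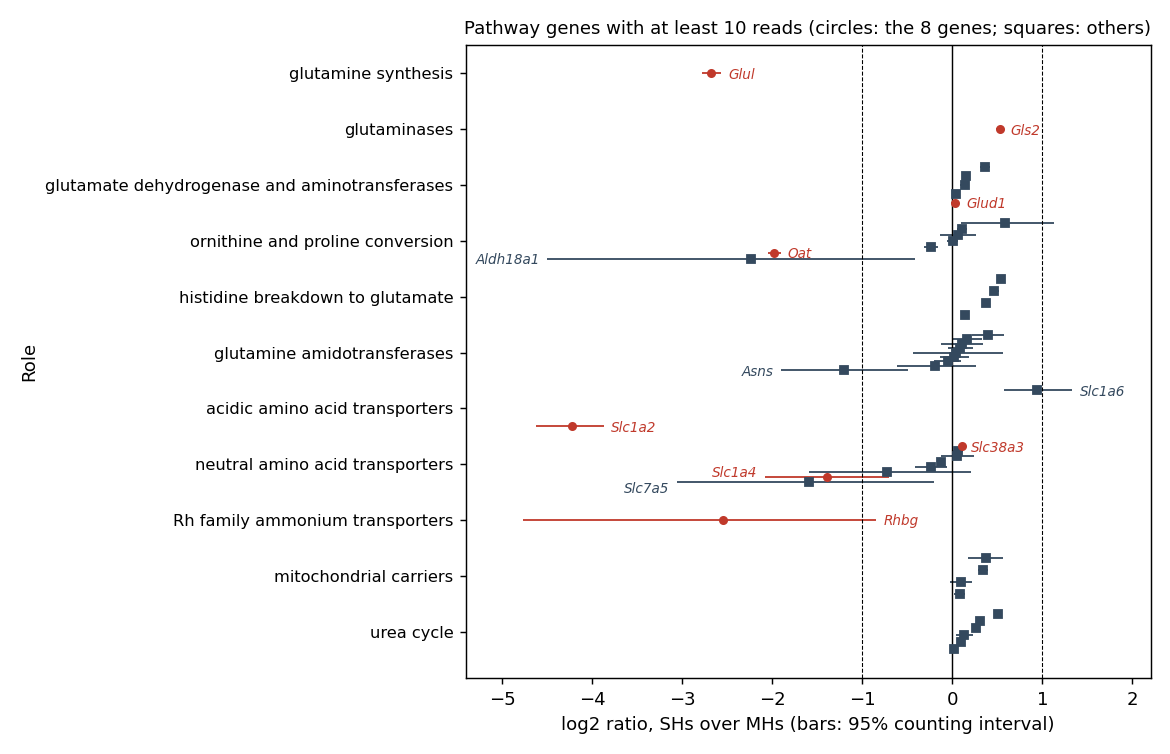
Log2 ratio of SHs over MHs for the 8 genes (red circles) and the other pathway genes with at least 10 reads (dark squares, 1 gene left out), by role, with bars for the 95% counting interval and dashed lines at a 2-fold difference. Glul, Oat, Slc1a2, Slc1a4 and Rhbg stand left of the dashed line with Aldh18a1, Asns and Slc7a5, while the enzymes of histidine breakdown and of the urea cycle all stand right of 0.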

How the data were processed

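Poly(A) RNA from SHs and MHs was converted to libraries with the Ion Total RNA-Seq Kit v2 and sequenced on an Ion Proton system. The authors deposited whole read counts per gene symbol, without normalization, 1 file per library. The methods describe alignment to mm10 in CLC Genomics Workbench with a limit on hits per read and RPKM values, whereas the program and annotation behind the deposited counts are not given in the sources used here. Reads of near-identical copies and overlapping genes are therefore uncertain.

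Each count was divided by its library's counted reads and multiplied by 1000000, in Python 3.11.15 (numpy 2.4.6, pandas 2.3.3, scipy 1.17.1). Exon lengths came from GENCODE M21 on mm10, as the union of the exons of a gene, and promoters from RefSeq on GRCm38.p6, with 5 of the 8 genes present and Gls2, Rhbg and Slc38a3 missing. A gene was called lower or higher at 2-fold with its 95% interval wholly beyond a log2 ratio of 0, among genes that had 10 or more reads in all. With 1 library per condition, no p-value was computed. All 8 genes were named, as were, in each role group, the called genes and the gene with the most reads, and, for 4 genes, the 3 genes with the nearest ratios. Got1, Ass1, Prodh, Slc1a6, Slc38a7, Slc38a4, Rhcg and Rhag were named after their values were seen, as were the copies and overlapping genes. The members and lists were chosen with earlier results of these data known. Alternatives were scaling by edgeR TMM (4.0.16) or DESeq2 size factors (1.42.0) in R 4.3.3, used for scaling alone, scaling after the 10 genes richest in reads were left out, adding 2 reads, and other thresholds. The calculation was tested on simulated counts. Results for some genes are not reported here.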

Additional observations from a re-analysis of the deposited data

How the results depend on the processing

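Of the values recomputed under alternatives, 67 stayed within their counting interval or within 1.5 times the count, 6 moved, and none changed direction. Each scaling shifts every log2 ratio by the same amount, at most 0.0315, so agreement across scalings was largely set in advance. Scaling without the 10 genes with the most reads gave Slc38a3 a log2 ratio of 0.13. The count of the 8 genes that were lower in SHs was 3 at a 4-fold threshold, and 3 with a minimum of 100 reads, since Rhbg and Slc1a4 had fewer. Of the other pathway genes, 1 was lower at 4-fold and 0 with at least 100 reads, and 2 were higher at 1.5-fold. Summing Glul with Glns-ps1 was chosen after seeing the data and left the ratio within its interval. The scalings moved the median of all genes by at most 0.0315. No paired analysis was possible because SHs and MHs had a single library each. For the same reason, the spread between animals or preparations could not be measured, and differences between sorted and unsorted cells cannot be told apart from differences between SHs and MHs. Depth limits Rhbg most, with 14 reads in all.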

Other observations

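For 4 of the genes, the genes with the nearest log2 ratios among those with at least 200 reads were listed. The likeness is the difference in log2 ratio over 2 libraries, and nothing follows from it about shared function or control. Nearest to Slc1a2 (-4.23) were Ehd3 (-4.64, with 324 reads in MHs and 32 in SHs), Ptprb (-5.11, with 422 and 30 reads) and Stab1 (-5.25, with 252 and 16 reads). Ptprb encodes a phosphatase of vascular endothelium, and Stab1 a scavenger receptor of sinusoidal endothelium. No gene with that depth lay within 0.1 of Slc1a2.

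Nearest to Glul (-2.68) were Stab2 (-2.82, with 338 and 119 reads), a scavenger receptor of sinusoidal endothelium, Cyp2a5 (-2.43, with 1254 and 582 reads), a cytochrome P450 of hepatocytes around the central vein, and Mup-ps3 (-2.05), a pseudogene of the major urinary protein family. No gene with that depth lay within 0.1 of Glul either. Nearest to Oat (-1.98) were Mup-ps11 (-1.97), Lhpp (-2.01, with 342 and 212 reads) and Cd36 (-1.95, with 181 and 117 reads), a fatty acid receptor, and 7 genes lay within 0.1. Gls2 (0.53), by contrast, had 303 genes within 0.1, of which Gm15998 (255 and 917 reads), Taf5 (57 and 206 reads) and Ube2z (371 and 1334 reads) were nearest. Large negative ratios such as those of Glul and Slc1a2 thus had few neighbours, whereas the ratio of Gls2 had more. The ratio of Gls2 still ranked 9369 from the lowest of the 9608 genes with at least 200 reads.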
